A study of Bos taurus with 20 samples.

Results

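The genes described here are the tripartite motif (TRIM) genes of cattle, as expressed in the whole blood of pregnant cows. Every gene of the count files whose NCBI cattle symbol is TRIM followed by a number was taken, which gave 56 genes. Of these, 44 had at least 10 counts in at least 5 cows and form the set analysed, out of 16269 genes that passed the same filter and 37063 genes in the files. TRIM22 and TRIM26 have no gene of that symbol in the name table used and so are not among them.

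Blood was drawn into RNA-stabilising tubes from 20 recipient cows on day 63 of pregnancy, and each gave 1 library. The study's sources differ on the recipients, given as lactating dairy cows in one place and as Angus in another, and the labels name no breed or age. Each cow was a recipient of 1 in vitro-produced embryo from an Angus beef oocyte fertilised with sex-sorted semen, and each carried a female fetus. All 20 cows form 1 group without a non-pregnant or untreated control, and the variable of the study is calf birth weight (BW), from 30 to 72.5 kg.

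TRIM proteins carry a RING finger, 1 or more B-box zinc fingers and a coiled coil, followed by a C-terminal domain that differs between members, and most act as E3 ubiquitin ligases. Several are induced by type I interferon and act in antiviral defence, either by binding viral proteins or by ubiquitinating sensors of viral RNA and DNA. Others regulate transcription on chromatin, cell signalling, red cell maturation or the turnover of muscle proteins. In ruminants the early conceptus secretes interferon tau, a type I interferon, and interferon-stimulated genes of maternal blood cells respond to it when the embryo signals its presence.

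Total counts per cow ranged from 24632077 to 39892111, with a median of 33412740. The lowest total was that of the recipient of the 30 kg calf, the lightest calf, and that cow also stood apart in its interferon-stimulated genes. An interferon score was computed for each cow as the mean standardised log2 CPM (counts scaled to the library total) of 41 interferon-stimulated genes, none of them a TRIM gene, and was scaled to a standard deviation of 1 over the 20 cows. The score of the recipient of the 30 kg calf was 3.54, the next highest was 0.84 in the recipient of the 37 kg calf and the lowest was -1.24 in the recipient of the 72.5 kg calf. Of the 41 score genes, 39 (95.1%) were highest in the recipient of the 30 kg calf, against 5.98% of all genes tested. Of the 44 TRIM genes, 6 (13.6%) were highest there, namely TRIM6, TRIM21, TRIM25, TRIM35, TRIM38 and TRIM56. Slopes on the interferon score are therefore given with and without this cow for the antiviral, chromatin and signalling members and for TRIM35 and TRIM47.

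**Figure D1:**
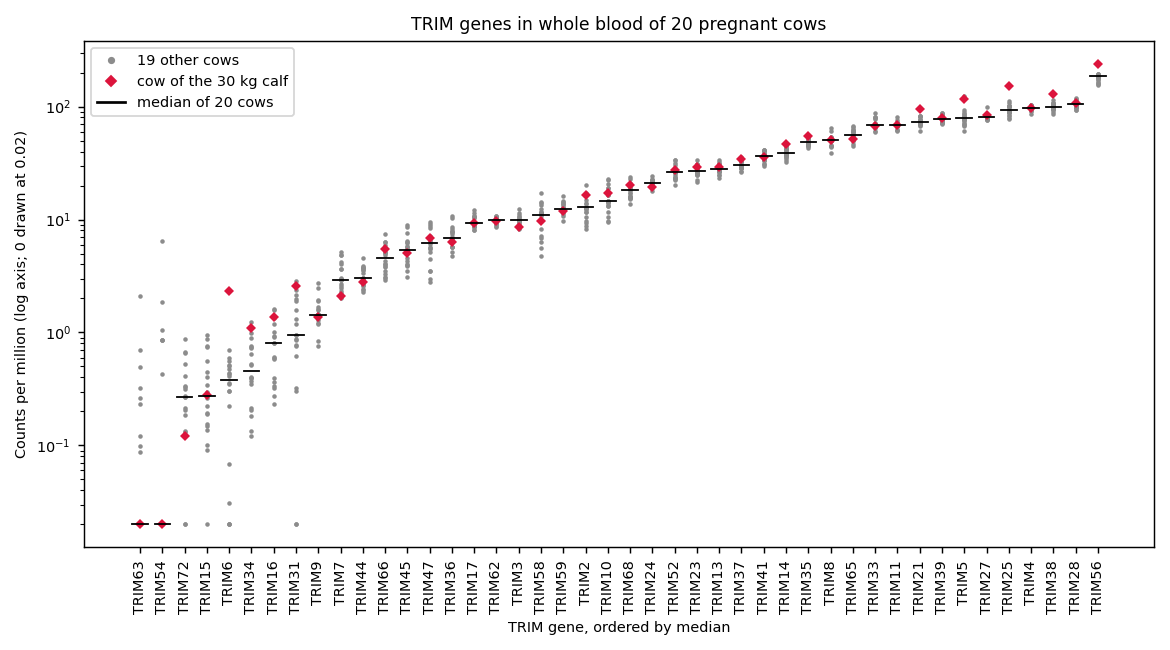
CPM (log axis, values of 0 drawn at 0.02) of the 44 TRIM genes in 20 cows, ordered by median. Grey points are 19 cows, the red diamond is the recipient of the 30 kg calf and the bar is the median of all 20. That cow lies above the other 19 for TRIM6, TRIM21, TRIM25, TRIM35, TRIM38 and TRIM56, while most other genes keep it inside the range of the rest.

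CPM are not corrected for transcript length, so the order of the genes in the plot of CPM by gene is an order of counts and not of transcript number. On this scale TRIM56 had the highest mean, 184 CPM, followed by TRIM28 with 105 CPM and TRIM38 with 101 CPM. The lowest means among the 44 genes were those of TRIM63 (0.222 CPM), TRIM72 (0.303 CPM) and TRIM15 (0.359 CPM). The set thus ran from TRIM56, with 4667 to 7748 counts per cow, to genes with none in some cows, and 32 of the 44 had a mean of at least 5 CPM.

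The first question was which TRIM genes varied with the interferon-stimulated genes. The count of each gene was modelled on the interferon score over the 20 animals by edgeR's quasi-likelihood test, with Benjamini-Hochberg adjustment of p over all 16269 genes. TRIM25 and TRIM56 had an adjusted p below 0.05, both with a higher level at a higher score, so that 2 of 44 TRIM genes rose and 0 fell. Of all genes tested, 0.725% were called, 0.688% up and 0.0369% down. The median slope of the 44 TRIM genes was 0.012 on the log2 scale per SD of the score, beside -0.0030 over all genes tested. At an unadjusted p below 0.05 there were 7 TRIM genes (15.9%), all with positive slopes, beside 6.79% of all genes tested. Genes with a positive slope at that p made up 3.77% of all genes tested. These 7 were TRIM5, TRIM6, TRIM21, TRIM25, TRIM34, TRIM38 and TRIM56.

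TRIM25 is a ligase that ubiquitinates the RNA sensor RIG-I and is itself interferon-inducible. It ranged from 77.9 CPM in the recipient of the 72.5 kg calf, through a median of 92.6 CPM, to 152 CPM in the recipient of the 30 kg calf, with 112 CPM as the second highest value. The highest cow was thus separated from the other 19. The slope was 0.18 ± 0.025 (SE, n = 20) on the log2 scale per SD of the score, with an adjusted p of 9.82e-05 by edgeR's quasi-likelihood test.

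TRIM56, a ligase active in RNA and DNA sensing pathways, ranged from 155 CPM, through a median of 186 CPM, to 239 CPM. The lowest value was again that of the recipient of the 72.5 kg calf and the highest that of the recipient of the 30 kg calf, with 194 CPM next. Its slope was 0.11 ± 0.019 (SE, n = 20), with an adjusted p of 0.00216 by edgeR's quasi-likelihood test. The other 19 cows lay between 155 and 194 CPM.

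TRIM21, a cytosolic antibody receptor that targets antibody-coated virus for degradation, ranged from 60.8 CPM through 73.1 CPM to 95.3 CPM, with 82.9 CPM as the second highest value. Its slope of 0.097 ± 0.023 (SE, n = 20) did not pass the threshold in edgeR's quasi-likelihood test (adjusted p = 0.0566). DESeq2's Wald test called it, together with TRIM25 and TRIM56, with an adjusted p of 0.0195. DESeq2 called 169 of the 22264 genes to which it gave an adjusted p (0.759%). Over all alternatives the adjusted p of TRIM21 ran from 0.0195 to 0.963.

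TRIM38, a regulator of innate immune signalling, ranged from 86.0 CPM through 99.6 CPM to 130 CPM, with 114 CPM as the second highest value. Its highest value again belonged to the recipient of the 30 kg calf, and its slope was 0.082 (edgeR adjusted p = 0.156). TRIM5, a restriction factor that binds retroviral capsids, ranged from 60.7 CPM through 78.8 CPM to 123 CPM. Here the recipient of the 56 kg calf was highest and the recipient of the 30 kg calf second with 116 CPM, and the slope was 0.11 (edgeR adjusted p = 0.655).

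TRIM6, TRIM34 and TRIM14 complete the antiviral members. TRIM6, a ligase that makes unanchored ubiquitin chains, ranged from 0 CPM through 0.381 CPM to 2.34 CPM, and the highest value was that of the recipient of the 30 kg calf, with 0.700 CPM next. TRIM34, a relative of TRIM5, ranged from 0.121 CPM through 0.458 CPM to 1.24 CPM and was second highest in the recipient of the 30 kg calf. The slopes of TRIM6 and TRIM34 were 0.70 and 0.40, with edgeR adjusted p of 0.394 and 0.715. TRIM6 was called in 1 alternative, limma with voom, with a slope of 0.94, and over all alternatives its slope ran from 0.35 to 1.06 and its adjusted p from 3.82e-04 to 0.9999. TRIM5, TRIM34 and TRIM6 lie close to each other in the ARS-UCD2.0 gene table and have similar sequences, and the handling of multi-mapping reads is not given in the sources used here, so the split of counts among these 3 genes is uncertain. TRIM14, an adaptor of mitochondrial antiviral signalling that lacks the RING finger, ranged from 32.0 CPM through 38.8 CPM to 46.5 CPM, with a slope of 0.038 (edgeR adjusted p = 0.916).

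**Figure D2:**
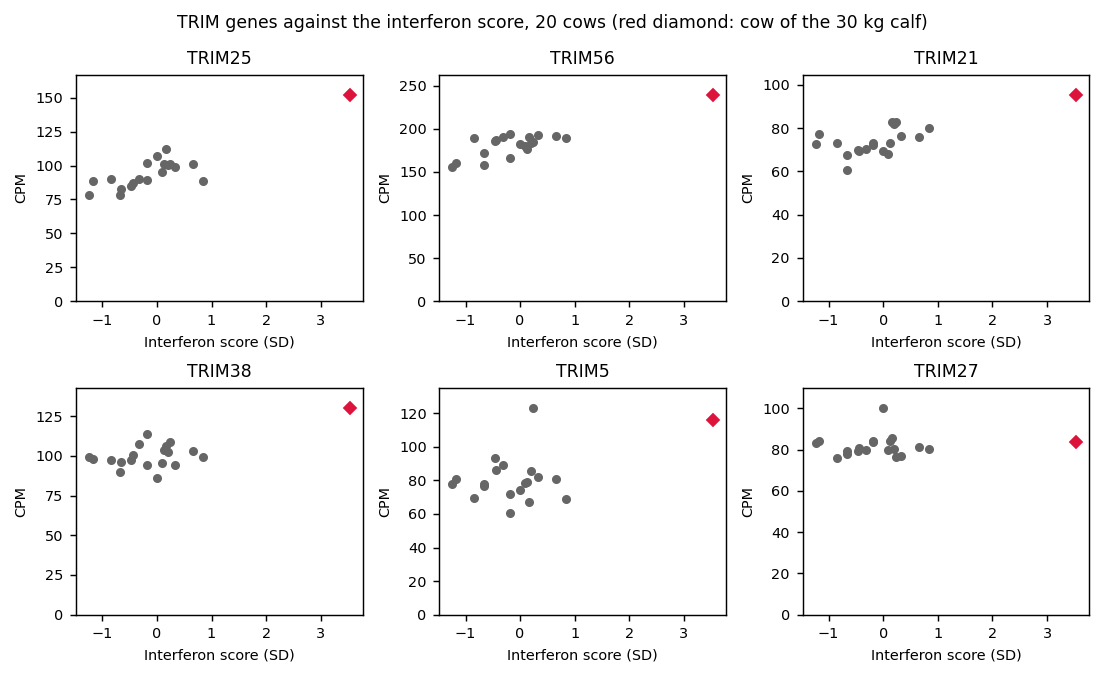
CPM of 6 TRIM genes (vertical axes, each from 0) against the interferon score of each cow (horizontal axes, in SD of 20 cows). The red diamond is the recipient of the 30 kg calf, with a score of 3.54, and it is the highest point for TRIM25, TRIM56, TRIM21 and TRIM38, the second highest for TRIM5 and within the other cows for TRIM27.

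Without the recipient of the 30 kg calf, 0 of the 44 TRIM genes were called in the 19 other cows by edgeR, and 0 by DESeq2. Of all genes tested, 0.178% were called in that edgeR fit, and of the 41 score genes 20 were called in it, against 36 in all 20 cows. The 41 genes make up the score, so their calls are no separate evidence. At an unadjusted p below 0.05 there were 3 TRIM genes, TRIM25, TRIM47 and TRIM56, in that edgeR fit (all genes 6.24%) and 4 in DESeq2 (6.79%). TRIM47 had a slope of 0.45 in the 19 cows (edgeR unadjusted p = 0.0172), against 0.19 in 20 cows (unadjusted p = 0.0971). The slope of TRIM25 was 0.17 in the 19 cows (unadjusted p = 0.00213, edgeR adjusted p = 0.337), close to that in 20 cows. Over all alternatives its slope ran from 0.10 to 0.20 and its adjusted p from 1.13e-08 to 0.337. TRIM56 had a slope of 0.12 (unadjusted p = 0.00496, edgeR adjusted p = 0.5). Over all alternatives its slope ran from 0.063 to 0.12 and its adjusted p from 1.08e-05 to 0.608. TRIM21 had a slope of 0.090 (unadjusted p = 0.0530), while the slopes of TRIM38 and TRIM5 were smaller without this cow, 0.034 and 0.025. TRIM6 had a slope of 0.55 (unadjusted p = 0.338, against 0.00723 in 20 cows) and TRIM34 one of 0.61, against 0.40 in 20 cows. The slope of TRIM14 changed its sign to -0.019, and that of TRIM35, a SPRY-domain ligase, from 0.033 to -0.0092.

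**Figure D3:**
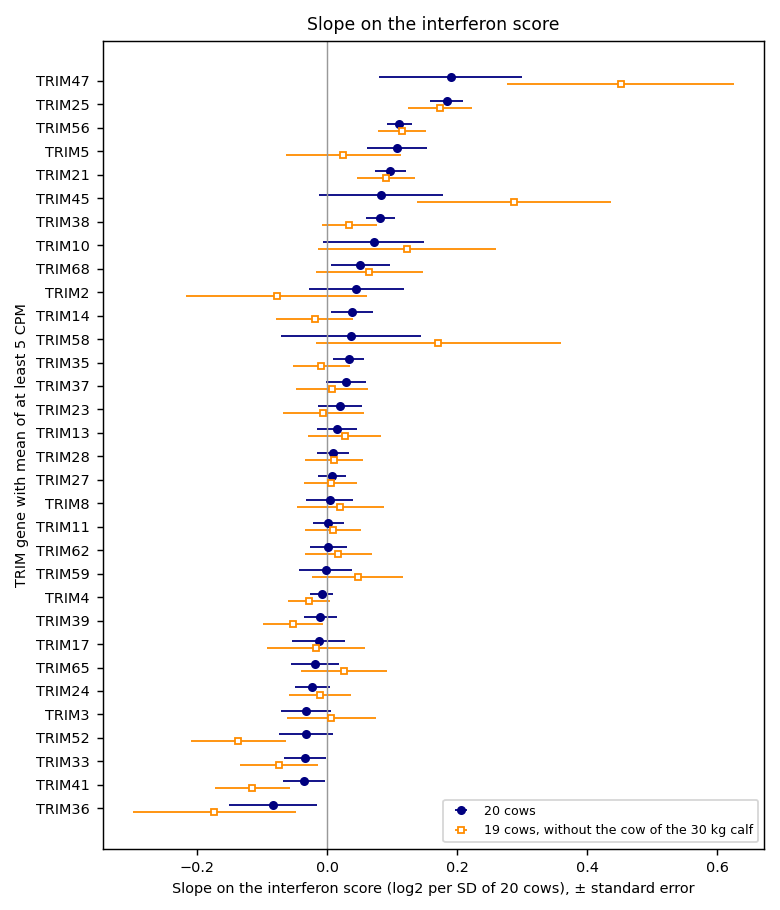
Slope on the interferon score (log2 per SD of 20 cows, horizontal axis) with its standard error for the 32 TRIM genes with a mean of at least 5 CPM, in 20 cows (filled circles) and in 19 cows without the recipient of the 30 kg calf (open squares). TRIM25 and TRIM56 have positive slopes of like size in both fits, while those of TRIM38 and TRIM5 are smaller in 19 cows and most error bars of the 19-cow fit are wider.

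Relatives and partners of the TRIM genes were set beside them. PML, which is TRIM19 by structure and organises nuclear bodies, ranged from 130 CPM through 156 CPM to 296 CPM, highest in the recipient of the 30 kg calf. Its slope of 0.24 on the interferon score passed the threshold (edgeR adjusted p = 1.77e-07), and without that cow it was 0.20 (adjusted p = 0.0588). It was the only one of 9 tested relatives that was called, the others being BSPRY, FSD1, FSD1L, FSD2, MID1, MID2, RNF207 and RNF39. Of 41 tested genes of RNA and DNA sensing and of the ubiquitin steps around it, 7 rose with the score, led by ISG15, the ubiquitin-like modifier, DHX58 and RIGI, the sensor that TRIM25 ubiquitinates. All 7 belong to the score itself, so that their slopes are no separate evidence. Of the 33 sensing and ubiquitin genes outside the score, 0 were called by edgeR and 0 by DESeq2, with 4 (12.1%) at an unadjusted p below 0.05 in each, beside 6.79% and 7.27% of all genes tested.

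The TRIM genes of chromatin were not called for the interferon score. TRIM28, the co-repressor of KRAB zinc finger proteins, ranged from 92.9 CPM through 106 CPM to 120 CPM, with a slope of 0.0093. TRIM24 and TRIM33, which read histone marks through a PHD finger and bromodomain, ranged from 17.8 to 24.4 CPM and from 59.2 to 87.8 CPM, with slopes of -0.023 and -0.034. TRIM66, their germ-cell relative, ranged from 2.93 to 7.44 CPM with a slope of 0.072. The lowest unadjusted p of these 4 genes was 0.306, that of TRIM33. Without the recipient of the 30 kg calf the slopes of TRIM28 and TRIM66 were 0.010 and 0.076, that of TRIM24 was -0.011 and that of TRIM33 -0.074, with unadjusted p of at least 0.231.

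The members of signalling and protein quality control did not pass either. TRIM8, a regulator of cytokine signalling, ranged from 39.0 CPM through 50.5 CPM to 64.4 CPM, with a slope of 0.0040. TRIM27 ranged from 76.0 CPM through 80.5 CPM to 99.9 CPM, with the recipient of the 50 kg calf highest and 85.8 CPM next, and its slope was 0.0079. TRIM37, a peroxisomal and centrosomal ligase, ranged from 26.3 CPM through 30.6 CPM to 36.0 CPM, with a slope of 0.029. For all 3 genes the recipient of the 30 kg calf lay inside the range of the others. Without that cow the slopes of TRIM8, TRIM27 and TRIM37 were 0.020, 0.0053 and 0.0077, with unadjusted p of at least 0.768.

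The second question was which TRIM genes were constant between cows. The SD of log2 CPM over the 20 cows had a median of 0.179 over the 44 TRIM genes, beside 0.225 over all genes tested. Since SD falls with the level, the comparison was also made at a mean of at least 5 CPM, where the median was 0.150 over 32 TRIM genes and 0.152 over 10499 genes. The spread of the family was thus like that of other genes of its level. Each gene's biological coefficient of variation (BCV) was divided by the trend of edgeR for genes of its level, and this ratio was below 1 in 32 of the 44 TRIM genes (72.7%) and in 77.1% of all genes tested.

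TRIM62, a ligase of the SPRY-domain type, had the lowest ratio of the family, 0.405, lower than in all but 0.129% of genes. It ranged only from 8.56 CPM through 9.81 CPM to 10.8 CPM in the 20 cows. TRIM4, also a SPRY-domain ligase, followed with a ratio of 0.477 and ranged from 86.0 CPM through 97.9 CPM to 103 CPM, so that its highest cow was 1.20 times its lowest. TRIM24, with a ratio of 0.506, and TRIM3, a ligase of the NHL-repeat type with a ratio of 0.525 and a range from 8.32 to 12.4 CPM, completed the 4 lowest ratios. By the SD of log2 CPM itself the order differed, with TRIM4 (0.063), TRIM27 (0.086), TRIM11 (0.094) and TRIM62 (0.095) lowest, whereas TRIM3 had 0.152, near the median of TRIM genes with a mean of at least 5 CPM. In none of the 4 genes with the lowest ratios was the recipient of the 30 kg calf the highest or the lowest.

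**Figure D4:**
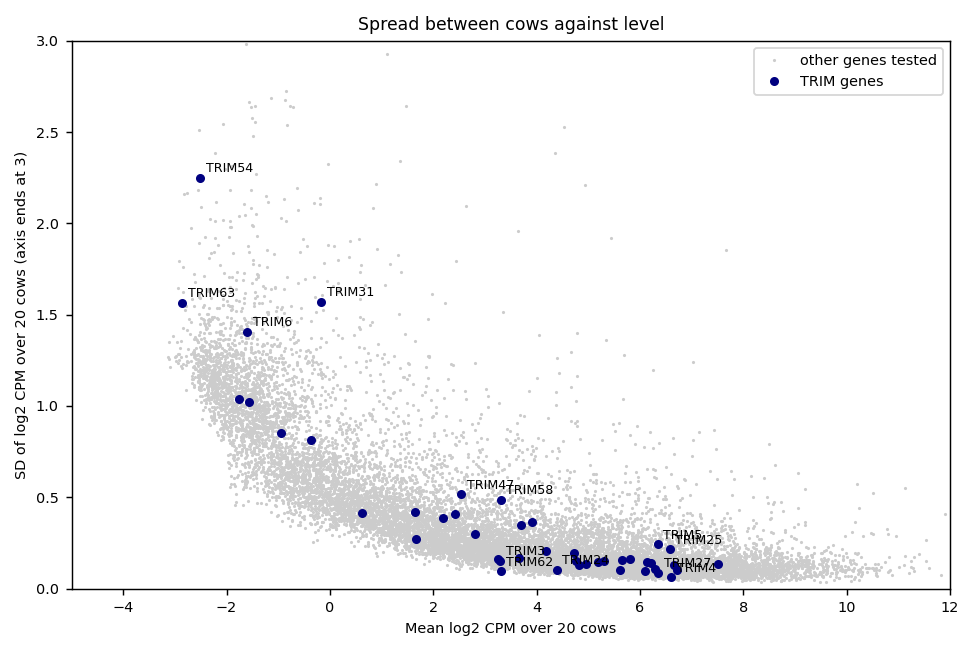
SD of log2 CPM over 20 cows (vertical axis, ends at 3) against mean log2 CPM (horizontal axis) for 44 TRIM genes (dark points) and the other genes tested (grey). TRIM54, TRIM63, TRIM31 and TRIM6 lie high among genes of low level, TRIM4 and TRIM27 lie along the lower edge, and the family follows the cloud of other genes.

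At the other end, also picked as extremes, stood TRIM54 (ratio 4.76), TRIM63 (3.09), TRIM31 (1.84) and TRIM6 (1.62). Their ratios were above those of 99.7%, 99.1%, 95.6% and 93.7% of all genes tested. TRIM54 and TRIM63, also known as MuRF3 and MuRF1, are ligases of striated muscle that bind or degrade sarcomere proteins. TRIM54 had 0 counts in 13 cows and 238 counts in the recipient of the 41.5 kg calf, and TRIM63 had 0 counts in 11 cows and 78 counts in that same cow. TRIM54 reached 10 counts in 7 cows and TRIM63 in 5, so that both were at 0 in more than 10 cows and clear in several.

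Counts of other striated muscle genes were found in the same libraries. Myoglobin (MB) had counts in 8 cows, those of the 55, 32, 50, 41.5, 47.4, 39, 56 and 46 kg calves, and 0 counts in the other 12. TRIM54 had counts in 7 of these 8 cows and in 0 of the 12, and TRIM63 in 8 of the 8 and in 1 of the 12. The summed level of 13 muscle genes, a list chosen after their values were seen, was 1361 CPM in the recipient of the 41.5 kg calf. It was at least 105 CPM in the 8 cows and at most 58.2 CPM in the 12. By count, 6 of the 13 genes were highest in the recipient of the 41.5 kg calf and 7 in that of the 50 kg calf. The slow myosin heavy chain MYH7 had the highest single count, 28382 in the recipient of the 41.5 kg calf, while by median NEB, the giant thin-filament protein nebulin, led with 843.5 counts, and both had counts in all 20 cows, whereas 6 of the 13, among them the creatine kinase CKM and the fast myosin MYH2, were at 0 in some cows. The part of muscle RNA in the TRIM54 and TRIM63 counts was not tested. TRIM55, or MuRF2, did not pass the filter, with at most 10 counts in a cow. TRIM72, which acts in membrane repair of muscle, ranged from 0 to 32 counts and was highest in the recipient of the 41.5 kg calf. Unlike TRIM54 and TRIM63, it had counts in 18 cows and did not follow MB. Its next highest count, 27, was in the recipient of the 49.5 kg calf, where MB, TRIM54 and TRIM63 had 0.

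TRIM31, a ligase described in the gut and in inflammasome control, ranged from 0 CPM through 0.953 CPM to 2.87 CPM. The recipient of the 32 kg calf was highest and that of the 30 kg calf second with 2.58 CPM, whereas the cows of the 40 and 56 kg calves had none. TRIM31 lies in a row with TRIM15, TRIM10 and TRIM40 in the gene table, of which TRIM40 did not pass the filter, with at most 8 counts in a cow.

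Since whole blood mixes cell types, each gene was also modelled on scores of marker genes of 6 cell types in the same 20 cows. In bulk blood, fewer cells of a type and less RNA per cell cannot be told apart. With edgeR, 0 of 44 TRIM genes were called for the neutrophil score (all genes 1.98%), 0 for the T cell score (1.27%) and 0 for the erythroid score (0.0553%). At an unadjusted p below 0.05 there were 6, 3 and 4 of them (all genes 17%, 11% and 9.77%), and DESeq2 was not run on these scores. For the B cell score 1 of 44 was called (all genes 2.59%), for the platelet score 1 (0.535%) and for the monocyte score 5 (8.16%), 2 up (4.39%) and 3 down (3.76%).

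TRIM2, a ligase studied in neurons, rose with the B cell score, made of 12 markers of which CD22 was the most abundant. It ranged from 8.30 CPM through 12.8 CPM to 20.1 CPM. The slope was 0.27 ± 0.049 (SE, n = 20) per SD of the score, with an edgeR adjusted p of 0.00196, and it was called in all 20 fits that left out 1 cow. On the T cell score its slope was -0.20 (unadjusted p = 0.00532, edgeR adjusted p = 0.160). The B and T cell scores lay far apart in some cows, as in the recipient of the 47.4 kg calf with -2.04 and 2.41, and the part of T cells in the TRIM2 slope was not tested. The recipient of the 30 kg calf had the highest B cell score, 1.46. Of the 41 interferon score genes, 19 (46.3%) had an unadjusted p below 0.05 on it, all with positive slopes (all genes 13.3%). TRIM6 and TRIM25 had slopes of 1.07 and 0.094 on it (unadjusted p = 0.00169 and 0.0409), neither called after adjustment. On the T cell score TRIM6 had a slope of -1.29 (unadjusted p = 0.00312). The part of B cells in the interferon slopes was not tested.

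TRIM58, a ligase of late erythroid cells that acts in the loss of the nucleus, rose with the platelet score, made of 13 markers of which TUBB1 was the most abundant. It ranged from 4.71 CPM in the recipient of the 45 kg calf, through 10.9 CPM, to 17.3 CPM in the recipient of the 40 kg calf. The slope was 0.38 ± 0.074 (SE, n = 20) with an edgeR adjusted p of 0.0123. It was not called without the recipient of the 56 kg calf or without that of the 45 kg calf. Its slope was 0.23 on the monocyte score (unadjusted p = 0.0325) and 0.20 on the erythroid score (unadjusted p = 0.0584), and neither passed after adjustment. TRIM10, needed for terminal erythroid differentiation, ranged from 9.46 CPM through 14.5 CPM to 22.9 CPM and had a slope of 0.043 on the erythroid score (unadjusted p = 0.586).

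The monocyte score was made of 9 markers, with LYZ the most abundant, and their summed level ran from 1868 to 4030 CPM. TRIM47 and TRIM65, neighbouring SPRY-domain genes, rose with it, with slopes of 0.35 and 0.11 and edgeR adjusted p of 0.0191 and 0.0250. TRIM33, TRIM5 and TRIM9, the last a ligase of neurons, fell with it, with slopes of -0.11, -0.18 and -0.25 and edgeR adjusted p of 0.00282, 0.00468 and 0.0463. TRIM33 also had negative slopes on the neutrophil (-0.083, unadjusted p = 0.00617), platelet (-0.083, unadjusted p = 0.00603) and erythroid (-0.068, unadjusted p = 0.0345) scores, and TRIM65 positive ones on the neutrophil (0.080, unadjusted p = 0.0194) and erythroid (0.070, unadjusted p = 0.0444) scores, none of which passed after adjustment. The part of these cell types in the monocyte slopes was not tested. The recipients of the 56 and 46 kg calves had by far the lowest monocyte scores, -2.87 and -2.15, and they had the highest TRIM9 values, 2.76 and 2.499 CPM. They also had the highest values, 1.91 and 1.69, of a score of 2 eosinophil markers. The part of eosinophils in the monocyte slopes was not tested. Without the recipient of the 56 kg calf 0 TRIM genes were called, beside 273 of all 16269 genes, against 1327 in 20 cows. Without that of the 46 kg calf TRIM5 and TRIM33 were called, beside 828 of all genes, and without both 0 were called, beside 178 of all genes. The slopes without both were 0.34, 0.15, -0.14, -0.20 and -0.039 for TRIM47, TRIM65, TRIM33, TRIM5 and TRIM9. Only that of TRIM9 moved by more than 1.5 times. TRIM9 was called in only 5 of the 20 fits that left out 1 cow.

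The third question was whether TRIM genes varied with calf BW. The recipient of the 72.5 kg calf, the heaviest calf, was not fitted, so that 19 cows were used. With edgeR, 0 of 44 TRIM genes and 0 of 16206 genes (0%) were called. DESeq2 called 0 of the 43 TRIM genes to which it gave an adjusted p, all but TRIM63, and 189 of 15479 such genes (1.22%), and limma with voom called 0 of each. At an unadjusted p below 0.05 there were 6 of 44 TRIM genes in edgeR (13.6%), 2 with positive and 4 with negative slopes, beside 13.9% of all genes tested, 6.78% with positive and 7.08% with negative slopes. DESeq2 also gave 6 (all genes 14.3%), and limma with voom 4 (12.9%). The 6 of edgeR held TRIM6 (unadjusted p = 0.0451, DESeq2 0.0551), and those of DESeq2 held TRIM10 in its place. TRIM10 had a slope of -0.021 per kg in edgeR (unadjusted p = 0.0503) and -0.020 in DESeq2 (unadjusted p = 0.0363). Slopes were negative in 25 of the 44 TRIM genes (56.8%), beside 53.4% of all genes tested, and in DESeq2 in 23 of the 44.

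**Figure D5:**
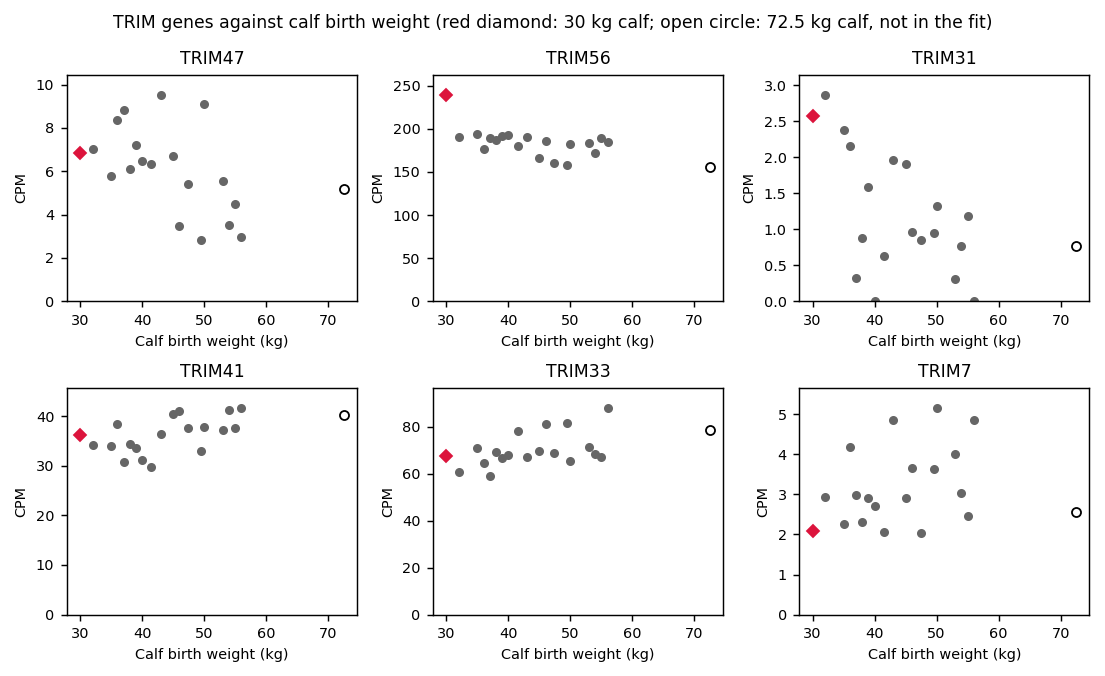
CPM (vertical axes, each from 0) of the 3 TRIM genes with the smallest p on calf birth weight (kg, horizontal axes) in each direction. The red diamond is the recipient of the 30 kg calf and the open circle the recipient of the 72.5 kg calf, which is not in the fit. The slopes of TRIM47, TRIM56 and TRIM31 are negative and those of TRIM41, TRIM33 and TRIM7 positive, and no gene passed the threshold after adjustment.

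The smallest p belonged to TRIM47, a ligase described in blood vessels, which ranged from 2.82 CPM through 6.22 CPM to 9.52 CPM. Its slope was -0.037 ± 0.013 (SE, n = 19) on the log2 scale per kg, with an unadjusted p of 0.00968 and an edgeR adjusted p of 0.215. The 5 cows with the lowest values all had calves of 46 kg or more, but the recipient of the 50 kg calf had the second highest. With all 20 cows fitted the slope was -0.023, and over all alternatives the adjusted p ran from 0.106 to 0.463. Among the 5 were the recipients of the 56 and 46 kg calves, which had the lowest monocyte scores, and the part of monocytes in this slope was not tested. TRIM56 had a slope of -0.0090 ± 0.0032 (SE, n = 19) per kg, with an edgeR adjusted p of 0.217. Without the recipient of the 30 kg calf this slope was -0.0049, and with the interferon score as a covariate -0.0029. TRIM31 followed with a slope of -0.074 per kg (unadjusted p = 0.0446).

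With positive slopes, TRIM41 ranged from 29.6 CPM through 36.8 CPM to 41.5 CPM and had a slope of 0.0090 per kg (unadjusted p = 0.0215). Its highest value was that of the recipient of the 56 kg calf, and without that cow its slope was 0.0080 per kg. On the monocyte score the slope of TRIM41 was -0.062 (edgeR unadjusted p = 0.0544), and the part of monocytes in its slope on BW was not tested. TRIM33 had a slope of 0.0085 per kg (unadjusted p = 0.0346) and TRIM7 one of 0.023 per kg (unadjusted p = 0.0664). Over all alternatives the slope of TRIM7 ran from 0.011 to 0.032 per kg. TRIM7 and TRIM41, both SPRY-domain ligases, are neighbours in the gene table. TRIM33 was also highest in the recipient of the 56 kg calf, the cow with the lowest monocyte score, and without that cow its slope was 0.0055 (unadjusted p = 0.166).

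Among the antiviral members, the 5 that were highest in the recipient of the 30 kg calf had negative slopes on BW, and these were nearer 0 without it. A high value in the recipient of the lightest calf draws a slope downward. The choice of genes thus favours this pattern, which is no separate evidence on BW. TRIM35, outside these 5 but also highest in that cow, had slopes of -0.0028 with it and -0.00050 without it. For TRIM25 the slope was -0.010 per kg in 19 cows (unadjusted p = 0.0772) and -0.00098 without that cow. For TRIM21 it was -0.0051 with and -0.00026 without that cow, and for TRIM38 -0.0071 with and -0.0026 without. With the interferon score as a covariate the slopes of TRIM25 and TRIM21 turned positive, 0.0032 and 0.0027. TRIM6 went from -0.087 to -0.033. Of the 3 antiviral members that were second highest in that cow, TRIM34 had slopes of -0.042 with it and -0.034 without, whereas TRIM5 and TRIM14 had slopes of -0.00035 and 0.0018 with it and 0.0084 and 0.0060 without. PML, the relative, had a slope of -0.022 per kg with an edgeR adjusted p of 0.129, was called by DESeq2 (adjusted p = 0.0400), and had a slope of -0.010 without that cow. The lightest calf, the highest interferon and B cell scores and the lowest total count are joined in 1 cow, and these cannot be told apart in it.

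Of the 12 TRIM genes that did not pass the filter, TRIM32 and TRIM71 had 0 counts in all 20 cows. TRIM32, a ligase of muscle and brain, lies inside the gene ASTN2 in the ARS-UCD2.0 table, and ASTN2 had 10 to 60 counts per cow. A count of 0 here is that of the deposited table, and how reads in overlapping genes were assigned is not given in the sources used here. The others were TRIM29, TRIM40, TRIM42, TRIM46, TRIM50, TRIM55, TRIM64, TRIM67, TRIM69 and TRIM77, and their highest count in any cow was 15, that of TRIM46.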

How the data were processed

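RNA from whole blood of 20 cows was sequenced, 1 library per cow. Per the labels the libraries came from a SMARTer stranded kit, whereas the methods name a TruSeq stranded kit. After trimming with Trimmomatic and alignment by STAR 2.7.0b to bosTau9, the authors deposited raw counts per Entrez gene from featureCounts (Subread 2.0.3). Strand and multi-mapping settings are not given in the sources used here. All 37063 identifiers matched the ARS-UCD2.0 gene table, used for names and neighbours only.

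Genes reaching 10 counts in 5 or more cows were tested with edgeR 4.0.16 (R 4.3.3, TMM, quasi-likelihood test) on calf BW, the interferon score or a cell marker score, with Benjamini-Hochberg adjustment at 0.05. The recipient of the heaviest calf was left out of the BW fit, following the study's methods. Standard errors were derived from the slope and its F statistic. Scores were means of standardised log2 CPM (prior count 2). DESeq2 1.42.0, limma 3.58.1 with voom, other size factors, a looser filter, covariates, ranks and leaving out each cow were alternatives. The DESeq2 filter level was first 0.05 and was set to the default of 0.1 after both counts of genes called for BW had been seen. Fits without the recipient of the 30 kg calf by DESeq2 or rank, and without both cows of lowest monocyte score, were also added after seeing the data. The steps were tested on simulated data in which 200 genes of higher counts had slopes of 0.06 per kg or 0.5 per SD of the interferon score. Of these, 97% and 99% were recovered. Slopes as small as those of most TRIM genes were not simulated, so the power to find them is not known.

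The TRIM genes and the lists were chosen with earlier results of these data known, and the muscle list after its values were seen. Genes were named by rule: those called for the interferon score, the 4 lowest and 4 highest BCV ratios, the 3 smallest p on BW in each direction, the 3 highest and 3 lowest mean CPM, up to 2 called with positive slope per cell score, the members of a list of known roles, and the 3 relatives or sensing genes of smallest p on the interferon score. Genes outside this rule were named after their values were seen. Among them were the members of short counts, the relatives tested and genes that were missing or did not pass the filter. Cows are separate animals, and no pair of libraries differed by as little as sampling noise.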

Additional observations from a re-analysis of the deposited data

How the results depend on the processing

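Leaving out 1 cow at a time gave 0 to 3 TRIM genes called for the interferon score, 1 to 2 for the B cell score, 0 to 5 for the monocyte score and 0 to 1 for the platelet score, and 0 in every such fit for calf BW and for the neutrophil, T cell and erythroid scores. Shares of all genes are not set beside these ranges, so no difference of the TRIM genes from other genes is read from them. Without the recipient of the 30 kg calf the interferon count was 0, and in the fits without each of the other 19 cows TRIM25 and TRIM56 were called. For the interferon score, against 2 TRIM genes and 118 of all genes called, calf BW as a covariate left 1 (TRIM25, 72 of all genes) and the rank of the score 0 (42 of all genes). The rank and DESeq2, each without the recipient of the 30 kg calf, left 0 (24 and 54 of all genes), and these alternatives were chosen after seeing the data, as was the monocyte fit without the recipients of the 56 and 46 kg calves, which left 0. With DESeq2, with voom and with neutrophil and T cell scores as covariates the count was 3, beside 169 (of 22264), 132 and 123 of all genes. The B cell count was 2 without the cow of the 35, the 37 or the 46 kg calf. Counts of all genes are not set beside the B cell count in those fits. Whether its rise went beyond that of other genes was therefore not tested. Slopes on BW changed sign with the interferon score as a covariate for TRIM21 (0.0027) and TRIM25 (0.0032). The slope of TRIM14 on the interferon score was -0.0067 by rank and -0.019 by DESeq2, both without the recipient of the 30 kg calf, and ran from -0.019 to 0.048 over the fits that left out 1 cow. Apart from fits with fewer cows, the cause of these changes was not tested. For calf BW the count of TRIM genes was 0 in all 8 alternatives that kept 19 or more cows. Among all genes, 0 were called for BW by edgeR, 189 by DESeq2 (191 with the filter level at 0.05, both levels run and the default taken after seeing both counts), and 147 of 23087 by edgeR on every gene with any count. The filter level changed no count of TRIM genes. The median SD of log2 CPM over the TRIM genes was 0.128 with variance-stabilised values and 0.168 without the recipient of the 30 kg calf. Genes with means under 1 CPM, such as TRIM6 and TRIM34, rest on few counts, which limits their slopes. No paired analysis was possible because all cows belong to 1 group and carry no shared replicate numbers.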
